A study of Saccharomyces cerevisiae with 10 samples.

Results

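Aminoacyl-tRNA synthetases join each amino acid to its transfer RNA (tRNA), the step that fixes which amino acid a codon is read as. Yeast keeps separate synthetases for translation in the cytoplasm and inside mitochondria, all of them encoded in the nucleus, and a few genes serve both compartments by giving a protein with and one without a mitochondrial targeting sequence. The enzymes fall into class I and class II, which have unrelated catalytic folds. The members described here are 31 genes chosen by name, 18 for cytoplasmic and 13 for mitochondrial enzymes, of 5656 genes that probe sets of a single gene name on the array. They are not every synthetase gene of yeast. The platform annotation paired each member with 1 probe set, a group of short oligonucleotides that reports a single signal. All 31 lay above the dimmest 30% of the 9275 non-control probe sets, and the 6492 remaining probe sets were tested.

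RNA from Saccharomyces cerevisiae was hybridised to Affymetrix Yeast Genome S98 arrays, with 5 arrays of the wild-type strain HFY114 and 5 of a strain lacking EDC3. Edc3 is a cytoplasmic protein that stimulates removal of the mRNA cap, and the comparison asks which transcripts differ in level without it. Cultures of both strains grew untreated at 30 °C in YEPD, a rich medium, and total RNA was taken up in hot phenol, with 6 µg labelled for each array. The design text calls the strains isogenic and names the deletion strain SYY14, while the sample labels name it CFY25, and neither gives another allele or says how EDC3 was removed. Each experiment, lettered A, B, C, E or G in the labels, holds 1 array of each strain. EDC3 read 456.8 to 480.5 on the wild-type arrays and 0.1 to 2.3 on the edc3Δ arrays, where control probe sets for mouse genes reached 4.8. Every strain label thus matched its array, while the experiment letters cannot be checked in this way. Median array signals, which were lowest in E among the wild-type and among the edc3Δ arrays, ran from 58.2 to 66.7 over the non-control probe sets. Experiments E and G gave nearly alike arrays. Over 2653 bright probe sets (mean signal over 200) the log2 signals of E and G differed with a median absolute deviation of 0.091 in wild type and 0.082 in edc3Δ, against 0.21 to 0.48 for other pairs of experiments. The strain differences of E and G correlated at 0.72 over all tested probe sets, against 0.16 to 0.44 for other pairs. The design text calls the experiments independent and the labels call the arrays biological replicates, so E and G are kept apart below. Values for E and G averaged are given beside the counts of calls they move and for WRS1, FRS1, SLM5 and HTS1. Agreement between E and G is not read as a separate repeat. The number of arrays limits the precision, and in RNA from a whole culture a smaller share of cells with a transcript and less of it per cell cannot be told apart.

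Mean signals over the 10 arrays ran from 261 (GLN4, glutaminyl-tRNA synthetase) to 3738 (FRS1, the beta subunit of phenylalanyl-tRNA synthetase) among the cytoplasmic genes, with a median of 1269. Among the mitochondrial genes they ran from 49.1 (MSF1, the mitochondrial phenylalanyl enzyme) to 353 (MSR1, the mitochondrial arginyl enzyme), with a median of 92.0. The mean signals of 12 of the 13 mitochondrial genes lay below those of every cytoplasmic gene, MSR1 being the exception, while the median over all tested probe sets was 141. A probe set's signal also depends on its oligonucleotides, so no order of transcript amounts between genes is read from these values, and the gap between the groups was not tested.

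No synthetase gene passed the test of edc3Δ against wild type. Differences are given as log2 signal in edc3Δ minus log2 signal in wild type, and a gene passes at a Benjamini-Hochberg adjusted p under 0.05 over all 6492 tested probe sets. In limma's fit 0 of 31 members passed, against 0.077% of all tested probe sets. With the experiment letter as a block, again 0 passed, against 0.447% of all tested probe sets. Averaging E and G in the blocked fit cut the calls over all probe sets from 29 to 8 and moved the smallest adjusted p of a member from 0.0887 to 0.252 (limma), with no member passing. The fit without the block gave 2 members, both lower in edc3Δ, an unadjusted p under 0.05, against 4.82% of all tested probe sets and 2.16% on the lower side. These were WRS1 and FRS1. The blocked fit gave 6, against 23.1% of all: MES1, THS1 and SLM5 were higher, against 11.7%, and DPS1, FRS1 and WRS1 lower, against 11.4%. The strains' signals overlapped for every member, and 1.2% of all tested probe sets had no overlap.

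The fitted ratios of edc3Δ to wild type ran from 0.866 (FRS1) to 1.26 (MSY1, the mitochondrial tyrosyl enzyme). A log2 difference under 0.1 in size was found for 20 of the 31 members, or 64.5%, against 51.1% of all tested probe sets. Among the cytoplasmic genes the share was 66.7%, against 55.8% of the tested probe sets in their range of signal. Among the mitochondrial genes it was 61.5%, against 52.7% in theirs. For 29 of the 31, the 95% interval of the difference, taken gene by gene from limma without the block, lay inside a 1.5-fold change in either direction. The exceptions were HTS1, with an upper bound of 1.59-fold, and MSY1, with one of 1.96-fold. Before adjustment the intervals of FRS1 (0.758 to 0.991) and WRS1 (0.804 to 0.99) did not include a ratio of 1. With the experiment as a block 30 of the 31 lay inside, HTS1 among them, and MSY1 alone lay outside. The share of all tested probe sets inside this limit was not counted, so neither count is read as particular to the synthetases. Without the block the median SE was 0.105 over the members and 0.141 over all tested probe sets.

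**Figure D1:**
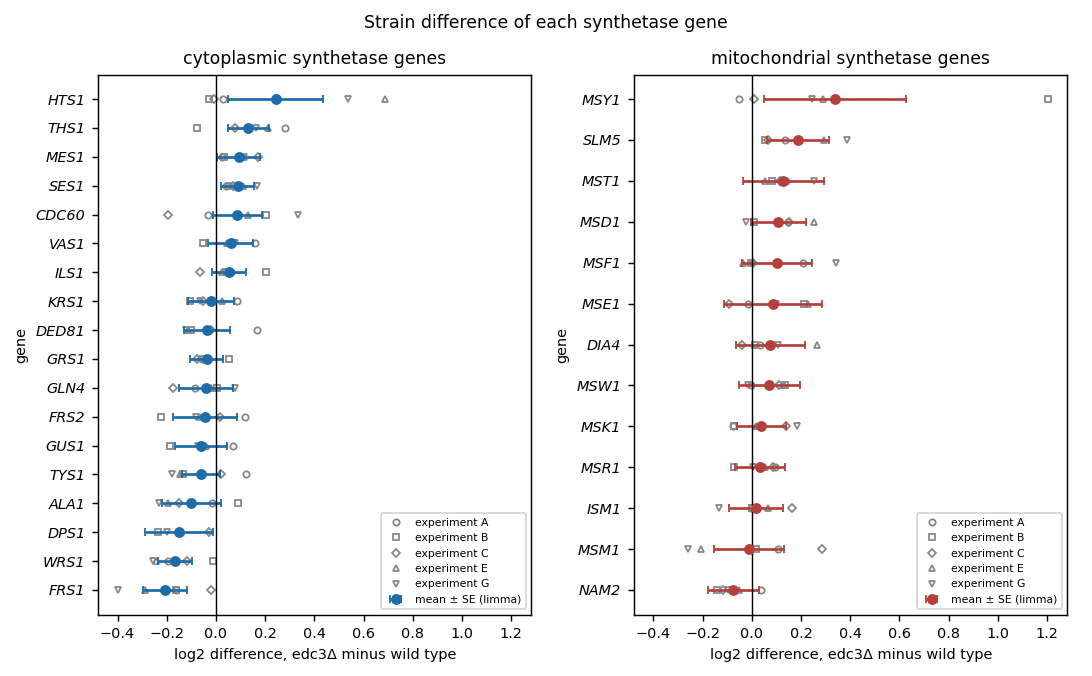
Log2 signal difference between edc3Δ and wild type for the 18 cytoplasmic (left) and 13 mitochondrial (right) synthetase genes, with limma's mean and SE in colour and each experiment's own difference in grey. Most means lie close to 0, the cytoplasmic genes on both sides of it and 11 of the 13 mitochondrial genes above it. HTS1 has high grey points in E and G, and MSY1 has one in B.

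Among the cytoplasmic genes 7 were higher and 11 lower in edc3Δ, with none passing, and the median log2 difference was -0.038. The median over all tested probe sets was -0.0037, and over the 2085 in the signal range of the cytoplasmic genes it was -0.018. By experiment the cytoplasmic median was 0.035 in A, -0.041 in B, -0.024 in C, -0.030 in E and -0.063 in G. The direction of this median rested on single arrays: it was 0.0094 without the wild-type array of experiment E and 0.0099 without the edc3Δ array of experiment B. The 8 class I genes had a median of 0.0061 and the 10 class II genes one of -0.038.

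WRS1 (YOL097C, chromosome XV), tryptophanyl-tRNA synthetase, had the smallest p of the members without the block. Its signals in experiments A, B, C, E and G were 1316, 1255, 1214, 1301 and 1292 in wild type and 1151, 1245, 1119, 1098 and 1081 in edc3Δ. The edc3Δ array was the lower one in every experiment, but the groups overlapped, since the edc3Δ signal of B exceeded the wild-type signal of C. The means were 1275 ± 41.4 in wild type and 1139 ± 64.9 in edc3Δ (SD, n = 5 each), and the log2 difference was -0.16 ± 0.069 (SE, limma adjusted p = 0.993; 0.107 with the experiment as a block; exact permutation p = 0.0159). FRS1 (YLR060W, chromosome XII) read 3745, 3658, 4077, 4464 and 4066 in wild type in the same order of experiments and 3350.1, 3265, 4015, 3656 and 3084 in edc3Δ. It too was lower in edc3Δ in every experiment, by the least in C, whose edc3Δ signal lay above the wild-type signals of A and B. The FRS1 difference was -0.21 ± 0.089 (SE, limma adjusted p = 0.9969; 0.0887 with the experiment as a block; exact permutation p = 0.0317). FRS2 (YFL022C), which encodes the alpha subunit of the same enzyme, differed by -0.046 ± 0.13 (SE), lower in 3 experiments and higher in 2, and its sign turned without the wild-type array of E (0.0091) or the edc3Δ array of B (0.048). A test of the difference between both subunits was not run. With E and G averaged, the log2 difference was -0.14 for WRS1 and -0.17 for FRS1. The exact permutation p-values, here and below, are not adjusted and ignore the pairing by experiment.

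THS1 (YIL078W, chromosome IX), threonyl-tRNA synthetase, gave 1673, 2052, 1966, 2029 and 1991 in wild type in A, B, C, E and G and 2034, 1948, 2072, 2349 and 2226 in edc3Δ. The deletion strain was higher in 4 of 5 experiments, and the wild-type array of A, the lowest of the 10, stood well under the rest. The log2 difference was 0.13 ± 0.083 (SE, limma adjusted p = 0.9994; 0.198 with the experiment as a block; exact permutation p = 0.119). SES1 (YDR023W, chromosome IV), seryl-tRNA synthetase, read 1313, 1242, 1271, 1348 and 1279.8 in wild type and 1351, 1286, 1335, 1455 and 1436 in edc3Δ. Each edc3Δ array exceeded its wild-type partner, by small steps, and the groups overlapped. Its means were 1291 ± 40.8 in wild type and 1373 ± 71.1 in edc3Δ (SD, n = 5 each). The fitted SES1 difference was 0.088 ± 0.068 (SE, limma adjusted p = 0.9994; 0.228 with the experiment as a block; exact permutation p = 0.0556). MES1, methionyl-tRNA synthetase, was also higher in all 5 experiments, with a difference of 0.092 ± 0.088 (SE). DPS1, aspartyl-tRNA synthetase, was lower in all 5, with a difference of -0.15 ± 0.14 (SE). With the experiment as a block the SE was 0.040 for MES1 (limma adjusted p = 0.215) and 0.041 for DPS1 (limma adjusted p = 0.0948). In all, 2 cytoplasmic genes were higher and 3 lower in every experiment, against 10.2% and 10.2% of all tested probe sets, so these counts lie near the background. The 4 genes listed here for both compartments are described further below. Of the other cytoplasmic genes, CDC60, leucyl-tRNA synthetase, gave 0.087 ± 0.10 (SE) and ILS1, isoleucyl-tRNA synthetase, 0.052 ± 0.070 (SE). Lower means in edc3Δ were found for TYS1, tyrosyl-tRNA synthetase, at -0.062 ± 0.077 (SE), and GUS1 at -0.060 ± 0.11 (SE). GLN4 at -0.040 ± 0.11 (SE), DED81 at -0.037 ± 0.094 (SE) and KRS1 at -0.021 ± 0.094 (SE) were lower too. All lay within these errors, which are from the fit without the block. With the experiment as a block the SE was 0.057 for TYS1 and 0.045 for GUS1, smaller than their differences.

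Among the mitochondrial genes 11 of 13 were higher in edc3Δ by their means, against 48.9% of all tested probe sets, with none passing the test. Their median log2 difference was 0.075, and it was 0.036 in A, 0.013 in B, 0.085 in C, 0.064 in E and 0.098 in G. The 3242 tested probe sets in the same signal range had a median of -0.0009. Leaving out 1 array moved the mitochondrial median between 0.021, without the wild-type array of E, and 0.12, without the wild-type array of A, and quantile normalization gave 0.045. It stayed above 0 in all 20 alternatives, most of which use the same arrays. All 6 class II genes were on the higher side, with a median of 0.10, and 5 of 7 class I genes, with a median of 0.032. The 13 genes were measured on the same arrays, so they are not independent of each other, and the median is given without a test.

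SLM5 (YCR024C, chromosome III), the mitochondrial asparaginyl-tRNA synthetase, had the smallest p of this group. It read 92.0, 86.1, 102, 68.5 and 82.4 in wild type in A, B, C, E and G and 100.9, 89.4, 107, 83.9 and 108 in edc3Δ. All 5 experiments gave a higher edc3Δ signal, with the widest gaps in E and G, while the groups overlapped. The log2 difference was 0.19 ± 0.13 (SE, limma adjusted p = 0.9994; 0.178 with the experiment as a block; exact permutation p = 0.167). With E and G averaged, the SLM5 difference was 0.15. MSY1 (YPL097W, chromosome XVI) gave 137, 113, 79.4, 80.1 and 81.2 in wild type and 132, 259, 79.8, 97.8 and 96.3 in edc3Δ. One array, edc3Δ of B, carried most of the difference, and the rest of the edc3Δ signals lay within the wild-type range. The log2 difference was 0.34 ± 0.29 (SE, limma adjusted p = 0.9994; 0.256 with the experiment as a block; exact permutation p = 0.389), and without that array it was 0.063.

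MSD1 (YPL104W, chromosome XVI), the mitochondrial aspartyl-tRNA synthetase, read 178, 203, 180.2, 142 and 169 in wild type and 196, 204, 200.1, 169 and 166 in edc3Δ. It was higher in edc3Δ in 4 of 5 experiments, by 0.11 ± 0.11 (SE) on the log2 scale. MST1 (YKL194C, chromosome XI), the mitochondrial threonyl-tRNA synthetase, read 83.9, 74.8, 69.6, 54.2 and 54.7 in wild type and 92.4, 79.1, 75.4, 56.3 and 65.1 in edc3Δ. Each experiment gave a slightly higher edc3Δ signal, a difference of 0.13 ± 0.17 (SE), while both strains were lowest in E and G. For neither gene did the exact permutation test separate the strains (p = 0.349 and 0.492; the smallest p it can give is 0.00794). The 2 mitochondrial genes with a lower mean in edc3Δ were NAM2, leucyl-tRNA synthetase, which also takes part in the splicing of mitochondrial introns, at -0.075 ± 0.10 (SE), and MSM1, methionyl-tRNA synthetase, at -0.011 ± 0.14 (SE). The other 7 genes of the group lay closer to 0 than the 4 named first. They were MSF1 at 0.10 ± 0.14 (SE), MSE1 at 0.086 ± 0.20 (SE), DIA4 at 0.075 ± 0.14 (SE), MSW1, the tryptophanyl enzyme, at 0.071 ± 0.12 (SE), MSK1, the lysyl enzyme, at 0.039 ± 0.099 (SE), MSR1 at 0.032 ± 0.10 (SE) and ISM1, the isoleucyl enzyme, at 0.018 ± 0.11 (SE). The sign of MSE1 turned without the wild-type array of E or the edc3Δ array of B.

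**Figure D2:**
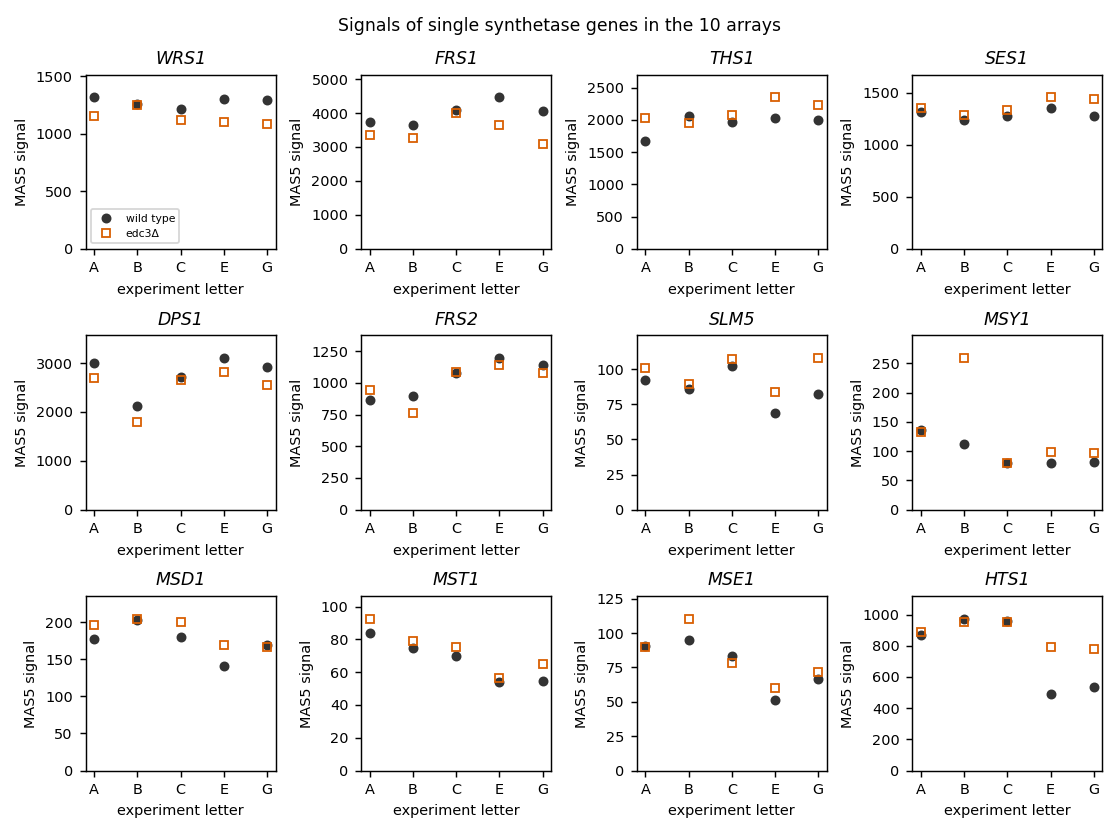
MAS5 signal, on a linear axis from 0, in wild type (filled circles) and edc3Δ (open squares) by experiment letter, for the 11 genes chosen by rank of p and for HTS1. The strains lie close together in most panels, MSY1 has 1 high edc3Δ array in B, and HTS1 has low wild-type arrays in E and G.

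HTS1 (YPR033C, chromosome XVI), chosen after its values were seen, encodes histidyl-tRNA synthetase and is 1 of the 4 members listed here as supplying both compartments. Its signals were 868, 972, 959, 489.9 and 539 in wild type in A, B, C, E and G and 886, 952, 955, 789 and 780.4 in edc3Δ. In A, B and C the strains read alike, and in E and G the wild-type arrays fell far below all the others, with the edc3Δ arrays of E and G in between. The strain difference was 0.029, -0.029 and -0.0066 in A, B and C, and 0.69 and 0.54 in E and G. Over all experiments it was 0.24 ± 0.19 (SE, limma adjusted p = 0.9994; 0.235 with the experiment as a block; exact permutation p = 0.373). With experiments A, B and C alone it was -0.0022, without the wild-type array of E it was 0.097, and with E and G averaged it was 0.15. With 1 array per strain and experiment, whether the strain difference depends on the experiment could not be tested. The other genes so listed were ALA1, alanyl-tRNA synthetase, at -0.10 ± 0.12 (SE), GRS1, glycyl-tRNA synthetase, at -0.038 ± 0.066 (SE), and VAS1, valyl-tRNA synthetase, at 0.059 ± 0.093 (SE).

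Levels of the members also differed between experiments. A moderated F test over the 5 letters, in a model that also holds the strain, called 16 of the 31 members, 10 cytoplasmic and 6 mitochondrial. That is 51.6% of the members, against 51.8% of all tested probe sets, so the share is near the background. With E and G averaged as 1 experiment the count was 9, against 45.3% of all, and it was 9 without either array of E and 10 without the wild-type array of A or the edc3Δ array of G. Over the fits without 1 array the share of all tested probe sets called was 38.9% to 49.1%. The ratio of the highest to the lowest letter, on the mean of both strains, ran from 1.07 (WRS1) to 2.15 (MSY1, whose level in B includes the high edc3Δ array).

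The cytoplasmic and mitochondrial genes lay on opposite sides in experiments E and G. Levels by letter are log2 signals averaged over both strains, minus the same gene's mean over the 5 letters. In E, 14 of 18 cytoplasmic genes were above their own mean and 12 of 13 mitochondrial genes below theirs, while 39.8% of all tested probe sets were above. In G the counts were 12 above and 11 below, with 44.7% of all tested probe sets above. The arrays of G were nearly alike to those of E, so G is not read as a separate repeat of E here or below. Counts and medians of these levels with E and G averaged are not given. The exceptions among the mitochondrial genes were NAM2 in E and NAM2 and SLM5 in G. The cytoplasmic median was -0.057, -0.044 and -0.0006 in A, B and C and 0.11 and 0.046 in E and G. The mitochondrial median was 0.079, 0.15 and 0.061 in A, B and C and -0.18 and -0.10 in E and G.

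Under the authors' scaling the median level in E was -0.059 over all tested probe sets, and it differed between ranges of signal. The groups are therefore set beside probe sets within the same range of signal. Within the ranges the levels were not matched. The median signal was 1269 for the cytoplasmic genes and 628 for the probe sets in their range. It was 92.0 for the mitochondrial genes and 126 for the probe sets in theirs. Those in the mitochondrial range had a median of -0.086 in E and -0.023 in G, and those in the cytoplasmic range one of -0.012 and -0.0058. With quantile normalization, which brings the median of all probe sets in E to -0.0042, the mitochondrial medians were -0.11 in E and -0.086 in G, and the cytoplasmic medians 0.066 and 0.030. These medians were not tested. The array carries control probe sets for both ends of SRB4, and their ratio (3′ end over 5′ end) grows as RNA or labelled cRNA gets shorter. On the log2 scale this ratio lay between 2.59 and 2.71 in A and between 2.39 and 2.67 in B, and between 3.17 and 3.505 in C, 3.58 and 4.40 in E and 3.22 and 3.44 in G. The same ratio for SPT15 overlapped between letters, at 2.11 to 2.40 in A and B and 2.18 to 2.57 in C, E and G. For ACT1 it was 0.60 to 0.70 in A and B, 0.91 to 0.99 in C and E and 0.66 to 0.84 in G. Arrays of A and B were scanned at 3 µm per pixel in 2 scans and those of E at 2.5 µm in 1 scan, per the instrument records, which leave these fields blank for C; no record for G was used here. The part of these technical differences in the letter pattern was not tested.

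**Figure D3:**
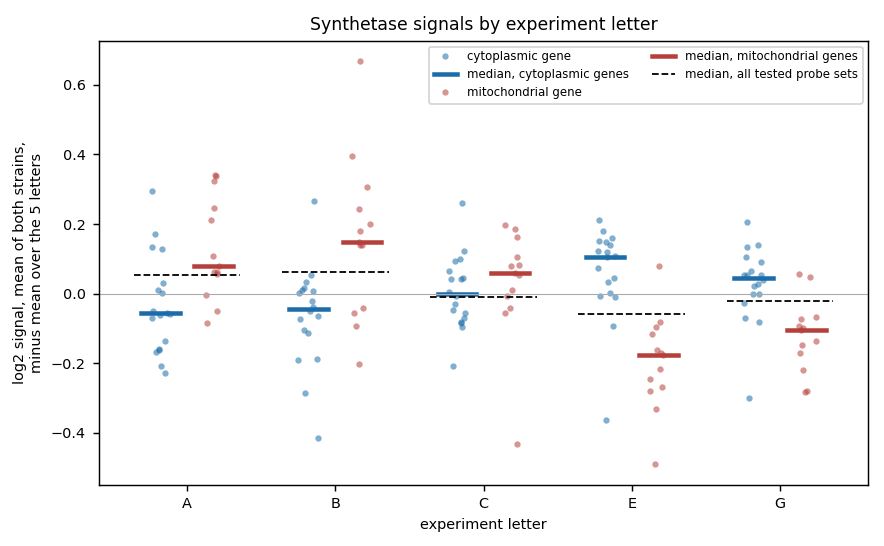
Log2 signal of each synthetase gene by experiment letter, as the mean of both strains minus the gene's mean over the 5 letters. Blue and red bars are the medians of the cytoplasmic and mitochondrial genes and dashed lines the median of all tested probe sets; the red median is above the blue one in A, B and C and below it in E and G.

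Single genes differed in how they followed the letters. DPS1 (YLL018C, chromosome XII) had the smallest p of the letter test among the members (adjusted p = 0.00118, limma F test). It read 2998, 2121, 2707, 3101 and 2915 in wild type in A, B, C, E and G and 2704, 1799, 2657, 2814 and 2543 in edc3Δ. Experiment B was the lowest in both strains, -0.42 from the gene's mean, and E the highest. FRS2 came next among the cytoplasmic genes (adjusted p = 0.00681, limma F test), with 868, 896, 1075, 1196 and 1139 in wild type and 942, 767, 1089, 1144 and 1078 in edc3Δ. Both strains were lower in A and B than in C, E and G. FRS1, for the other subunit, was not called (adjusted p = 0.0937), and ALA1, which was called, was highest in A (0.30) and lowest in C (-0.21). GUS1, glutamyl-tRNA synthetase, KRS1, lysyl-tRNA synthetase, VAS1 and MES1 were called and lowest in A, at -0.23, -0.21, -0.17 and -0.16. GLN4 and DED81, asparaginyl-tRNA synthetase, were called and lowest in B, at -0.19 and -0.19, and all 6 lay above their own means in E and G. HTS1, the other cytoplasmic gene called, was the farthest below its mean in E, at -0.36, and read -0.30 in G, while ALA1, CDC60 and WRS1 lay below theirs in E by less.

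Among the mitochondrial genes the letter test gave the smallest p for MSE1 (YOL033W, chromosome XV), glutamyl-tRNA synthetase (adjusted p = 0.00311, limma F test). Its signals were 90.6, 95.2, 83.5, 51.2 and 66.9 in wild type and 89.6, 110.3, 78.3, 60.0 and 71.6 in edc3Δ. Experiment E was the lowest in both strains and B the highest, 1.85-fold apart on the mean of both. MST1, whose signals are given above, followed (adjusted p = 0.00506), with 0.34 in A and -0.33 in E. MSR1 was called as well, within a narrower span of 1.23-fold, and so were MSD1, MSY1 and DIA4, the mitochondrial seryl enzyme. E was the lowest letter for 9 of the 13 mitochondrial genes, against 32.1% of all tested probe sets, and the highest for 9 of the 18 cytoplasmic genes, against 13.3%. B was the highest letter for 7 mitochondrial genes, against 33.8%. These shares cover probe sets of every signal level, and none was counted within the signal range of either group. Across the 10 arrays the median Pearson correlation between pairs of genes was 0.48 within the mitochondrial group, 0.16 within the cytoplasmic group and -0.31 between the groups. These values describe signals that share arrays and their scaling.

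**Figure D4:**
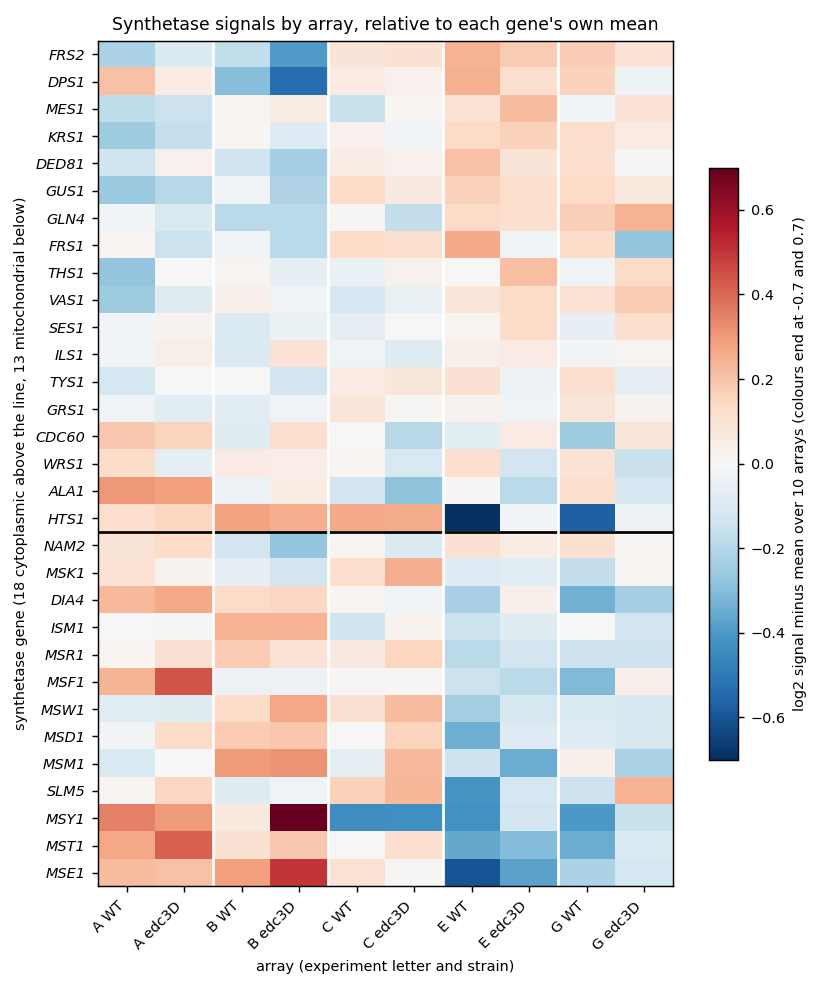
Log2 signal of the 31 synthetase genes on the 10 arrays relative to each gene's mean over all arrays, with cytoplasmic genes above the line and mitochondrial genes below it, ordered by their level in E. The E and G columns are mostly red above the line and blue below it in both strains, with HTS1 the strongest exception above the line and NAM2 the exception below it in E.

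For most amino acids the members hold a cytoplasmic and a mitochondrial enzyme, which allows 13 pairings, since FRS1 and FRS2 are both set against MSF1. The strain differences of the paired genes had the same sign in 3 pairings and opposite signs in 10, with no gene of them passing the strain test. In E the cytoplasmic gene stood above its mitochondrial counterpart, each relative to its own mean, in 12 of 13 pairings. In G, whose arrays were nearly alike to those of E, it did so in 12, compared with 4 in A, 2 in B and 5 in C. Levels are centred over the letters, so high counts in E and G go with lower ones elsewhere. The signs and these counts follow in part from the group patterns given above, and pairings across amino acids were not compared. The glutamyl enzymes were farthest apart in E, with GUS1 at 0.14 and MSE1 at -0.49, while the leucyl enzymes ran the other way, with CDC60 at -0.0072 and NAM2 at 0.079.

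Other genes that make, carry or sense charged tRNA were read from the same fit. Of 22 listed genes 21 were measured, FMT1 being too dim, and 0 passed the strain test without the block and 0 with it (limma), against 0.077% and 0.447% of all tested probe sets. At an unadjusted p under 0.05 there were 0 and 3 of them, against 4.82% and 23.1% of all. Their median log2 difference was -0.0018, with 10 higher and 11 lower. Each gene was represented by its probe set of highest mean log2 signal. GCN1 alone among those measured had several, 9 in all, of which 4 were tested. These 4 were all higher in edc3Δ, by 0.022 to 0.87, with 0 called. The smallest p-values were those of GTF1, a subunit of the mitochondrial amidotransferase that makes glutaminyl-tRNA, at 0.18 ± 0.10 (SE), SEN2, a tRNA splicing endonuclease subunit, at -0.15 ± 0.085 (SE), TUF1, the mitochondrial elongation factor that delivers charged tRNA, at 0.25 ± 0.16 (SE), and TPT1, the tRNA 2′-phosphotransferase, at -0.17 ± 0.16 (SE). ARC1, the cofactor of Mes1 and Gus1, differed by -0.0018 ± 0.096 (SE), and GCN4, the transcription factor that activates amino acid genes when uncharged tRNA builds up, by -0.062 ± 0.085 (SE). Both were chosen for their roles outside the rank of p. The letter test called 13 of the 21, against the 51.8% of all tested probe sets given above.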

How the data were processed

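The deposited values are intensities: the submitters' processing notes name MAS5 without a version, and each value is 1 linear signal per probe set and array. The authors' scaling was kept, although array medians (58.2 to 66.7) differ by letter, and quantile normalization is an alternative. Detection calls and probe intensities were not used here. Deposited instrument records of 8 arrays were read for chip lot (blank for E), pixel size and number of scans (both blank for C).

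Of 9335 probe sets, 60 controls were left out. Symbols came from the platform annotation through gene identifiers in a RefSeq table of assembly R64, and all 31 members matched. Signals were put on the log2 scale, with 156 signals of 0 in the whole table raised to 0.1, and the dimmest 30% (mean signal under 16.8) were left out. For the strains, 5 arrays against 5, lmFit and eBayes (with trend) of limma 3.58.1 were run in R 4.3.3, and the letters were tested with limma's moderated F test; p-values were adjusted by Benjamini-Hochberg over 6492 probe sets. Exact permutation tests are two-sided. The scripts were tested on simulated data.

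Same-numbered arrays of the strains share a letter in the labels, and their deviations from the strain means correlated at 0.47 to 0.71 across probe sets, so the blocked fit is taken as paired. Signals in every array are given for members called with or without the block, the 4 of smallest p in each compartment and the 2 of smallest p in the letter test. The members, lists and rules were chosen with earlier results of these data known. Alternatives are listed in the closing section.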

Additional observations from a re-analysis of the deposited data

Results flagged for a closer look

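In 3 of 62 groups of 5 arrays (each member in each strain) 1 array lay farther from the rest than Dixon's critical value of 0.71 allows, and chance gives about 3.1 such groups. DPS1 read 1799 on the edc3Δ array of B, against 2543 to 2814 on the other edc3Δ arrays, and the wild-type array of B was the lowest of its strain too. THS1 read 1673 on the wild-type array of A, against 1966 to 2052 on the others. CDC60, leucyl-tRNA synthetase, read 451 on the edc3Δ array of C, against 537 to 574 on the others.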

How the results depend on the processing

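The count of members called between the strains was 0 under all 20 alternatives, replicate block included, while the count over all probe sets ran from 2 to 106, the latter with array weights, against 5 in the fit as reported and 29 with the replicate block. The smallest adjusted p of a member was 0.061, for WRS1 with array weights, and 0.0887, for FRS1, with the replicate block; the block changed no call. Of the listed partner genes 0 were called under any of these. Leaving out 1 array moved the cytoplasmic median from -0.066 to 0.0099 and the mitochondrial median from 0.021 to 0.12. The letter test called 9 members with E and G averaged and 9 to 15 without 1 array, against 16; both settings leave fewer arrays. Signs turned for FRS2 (-0.11 to 0.048 over the fits without 1 array), for MSE1 (-0.054 to 0.19; negative without the wild-type array of E or the edc3Δ array of B) and for HTS1 (-0.0022 with A, B and C alone); the cause was not tested. The other 235 of 240 values of single genes kept their sign and stayed uncalled. The alternatives on the letter medians and all on HTS1 were added after seeing the data. The alternatives were no filter on dim probe sets, quantile normalization, signals under 16 raised to 16, eBayes without trend, array weights, E and G averaged (with and without the block), A, B and C only, each array left out, the replicate block and the chip lot block. Chip lot is recorded for A, B and C only, so in that last fit E (blank) and G (no record) each stood as a level of its own, which no record states to be a lot. The Gcn4 motif and protein signature searches were not run. Without detection calls, dim mitochondrial signals may include background.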
